A study of Saccharomyces cerevisiae with 4 samples.

Results

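The PIR genes of budding yeast, Saccharomyces cerevisiae, encode cell wall proteins that share an internal repeat. The family was taken as 5 reading frames chosen by systematic name: PIR1 (YKL164C), HSP150 (YJL159W, also called PIR2), PIR3 (YKL163W), CIS3 (YJL158C, also called PIR4) and PIR5 (YJL160C). All 5 were present among the 6172 genes and unmatched features of the deposited table, each as a single feature, and all 5 had a value on every array. The data were 4 two-colour DNA microarrays of a strain lacking RLM1 (rlm1 mutant). Each array set total RNA of cells exposed to zymolyase for 3 hours against total RNA of the untreated part of the culture; zymolyase is a mix of wall-lytic enzymes whose main activity cuts beta-glucan. Both parts grew in rich medium at 24 °C, the treated part with 5 units per ml of zymolyase, and both carried the rlm1 mutation. The design gives 2 cultures and, for each, a pair of arrays with swapped dyes. The treated RNA was in the Cy3 channel of arrays 1 and 3 and in the Cy5 channel of arrays 2 and 4.

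PIR proteins are secreted, trimmed by the Golgi protease Kex2, heavily O-mannosylated, and joined to the beta-glucan of the wall through an alkali-labile link at a glutamine of the repeat, where they can hold glucan chains together. Rlm1 is a transcription factor that the kinase Slt2, last in the cascade of the cell wall integrity pathway, activates. In wild-type yeast PIR1, HSP150, PIR3 and CIS3 are known as genes whose transcription this pathway raises, and PIR3 is one of the wall stress genes that depend on Rlm1. The arrays ask which members respond to wall digestion when Rlm1 is missing. No wild-type array was analysed here, so how far a response differs from that of wild-type cells was not tested.

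The values are log ratios of the 2 channels, read as log2 of zymolyase over untreated; the base is not given in the sources used here, and every fold rests on it. The 4 arrays held values for 4814 to 5657 features. Array 2 had the fewest and the widest ratios, with an SD of 0.63 against 0.32 to 0.35 on the others. Of the genes, 4730 had 4 values and were tested. Arrays 2 and 4 were turned for the dye exchange: of the 10 genes with the largest mean on arrays 1 and 3, all 10 had the opposite deposited sign on both arrays 2 and 4, although among the 200 largest 72 had the opposite sign on both and 64 the same. A control feature that carries no yeast gene kept 1 deposited sign, at -0.87, -0.82 and -0.64 on arrays 1, 3 and 4. The direction is likely rather than settled. Cy3 was taken as the numerator because this puts osmotic stress genes on the zymolyase side, among them HSP12 at 2.75 ± 0.49 and GPD1, of glycerol synthesis, at 1.84 ± 0.52 (mean log2 ratio ± SD, n = 4 arrays); the opposite reading turns every sign below. RLM1 itself had no value on any array, so the genotype could not be checked.

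Of the 5 PIR genes, CIS3, HSP150 and PIR5 rose with zymolyase in the strain without RLM1. CIS3 rose 1.73-fold, HSP150 1.53-fold and PIR5 1.49-fold. PIR1 had a mean of 1.32-fold and PIR3 of 1.03-fold, and neither passed the test. The test was limma on the means of the 2 cultures against no change, fitted under both ways of pairing the arrays into cultures, with the larger Benjamini-Hochberg adjusted p over all 4730 genes kept and a call made under 0.05. In that test 2.35% of all genes were called higher and 0.803% lower. The members' median log2 ratio was 0.57, beside -0.01 for all genes tested.

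CIS3 encodes an O-mannosylated wall protein that is bound to glucan like the rest of the family. Its log2 ratio was 0.62 on array 1, 1.34 on array 2, 0.44 on array 3 and 0.76 on array 4, with a mean of 0.79 ± 0.39 (SD, n = 4 arrays). It was above 0 on every array and highest on array 2. Few genes lay above it on any array: 4.97%, 0.846%, 7.21% and 1.54% of genes on arrays 1 to 4. Its adjusted p in limma was 0.00012, and it ranked 40 of 4730 by mean. Without array 2 the mean of the other 3 arrays was 0.61 ± 0.16.

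HSP150 encodes a heat-inducible secreted glycoprotein that is found both in the wall and in the medium. Its log2 ratio was 0.67, 0.76, 0.46 and 0.56 on arrays 1 to 4, with a mean of 0.62 ± 0.13. It had the narrowest spread of the family, and its values with zymolyase in Cy3 (mean 0.57) and in Cy5 (mean 0.66) lay close together. The adjusted p in limma was 0.0077. HSP150 ranked 79 of 4730 by mean, and 4 of the genes above it had a spread over the arrays as narrow or narrower. Genes that lay at or above 0.46, the lowest value of HSP150, on all 4 arrays numbered 42 of 4730, or 0.888%, HSP150 included. Both cuts are HSP150's own values, which favours low counts.

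PIR5 is the least studied of the family. Its log2 ratio was 0.14 on array 1 and -0.01 on array 3, where zymolyase RNA carried Cy3, and 1.25 on array 2 and 0.92 on array 4, where it carried Cy5. The values fell into groups by dye that did not overlap, and the mean of 0.57 ± 0.61 was carried by the Cy5 pair. Those of CIS3 did not overlap either, at 1.34 and 0.76 in Cy5 and 0.62 and 0.44 in Cy3. Nor did those of PIR3, with Cy3 the higher. The share of all genes with such groups was not counted. PIR5 passed the test (limma adjusted p = 0.017), in which an equal dye effect cancels. In a limma fit to the 4 arrays with a dye term, which called 1.44% of genes higher, its adjusted p was 0.059, whereas CIS3 (0.015) and HSP150 (0.035) passed. The contrast between the orientations was 1.02 for PIR5, and 75 of 4730 genes had one as large or larger. Without array 2 the mean of PIR5 was 0.35 ± 0.50.

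PIR1, whose protein lies in the wall and at bud scars, had log2 ratios of 0.42, 0.69, 0.23 and 0.25 on arrays 1 to 4. All 4 values were above 0, but the mean of 0.40 ± 0.21 did not pass (limma adjusted p = 0.21). The smallest mean that passed over all genes was 0.51. On the single arrays, 9.26%, 10.7%, 18.6% and 16.1% of genes lay above it. The mean differed little between the dyes, at 0.33 with zymolyase in Cy3 and 0.47 in Cy5.

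PIR3 had log2 ratios of 0.55 on array 1, 0.46 on array 3 and 0.38 on array 4, but -1.22 on array 2. Arrays 1, 3 and 4 averaged 0.46 ± 0.08, and with array 2 the mean was 0.04 ± 0.84 (limma adjusted p = 0.98). On array 2 97.2% of genes lay above PIR3, against 6.24%, 6.43% and 8.50% on arrays 1, 3 and 4. With array 2 left out, the fitted mean of PIR3 was 0.47 and did not pass (adjusted p = 0.17). The mean of PIR3 was thus set by array 2. Cuts were set at 0.38 or more on arrays 1, 3 and 4 and at -1.22 or less on array 2. These are PIR3's own values, which favours a low count. Of 4730 genes 3 met them, PIR3 included.

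**Figure D1:**
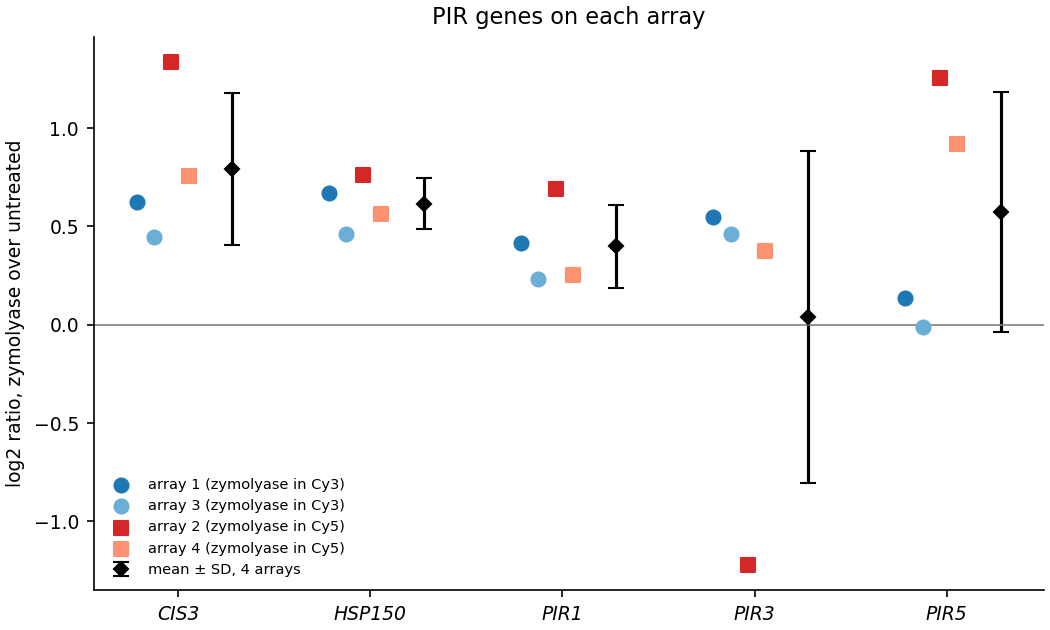
Log2 ratio of zymolyase over untreated (vertical axis) for each PIR gene on each array, circles for zymolyase RNA in Cy3 and squares for Cy5, with diamonds and bars for the mean ± SD over 4 arrays. HSP150 lies within 0.46 to 0.76, PIR5 and CIS3 have both Cy5 values above both Cy3 values, and PIR3 has array 2 at -1.22 against 0.38 to 0.55 on the other arrays.

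CIS3, HSP150 and PIR1 had a log2 ratio above 0 on all 4 arrays, as did 7.99% of all genes tested. Over arrays 1, 3 and 4 alone PIR3 was also above 0 each time, a pattern of 13.1% of genes. PIR5 missed it by -0.01 on array 3. The calls depended on having all 4 arrays. Leaving out any 1 array ended the calls of CIS3 (adjusted p between 0.088 and 0.34), HSP150 (0.11 to 0.59) and PIR5 (0.27 to 0.95), while the count over all genes fell from 149 to between 8 and 23. Without arrays 1 to 4 in turn, 0.38%, 0.428%, 0.359% and 0.168% of all genes were called higher.

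The arrays separated by dye orientation. After turning, arrays 1 and 3 correlated across genes at r = 0.60 and arrays 2 and 4 at 0.44, whereas for opposite orientations r was -0.14 to 0.05 and Spearman's rho -0.21 to -0.11, a description across genes, which are no independent replicates. These correlations do not settle whether the arrays should be turned. Against that spread HSP150 and PIR1 had orientation contrasts (Cy5 minus Cy3) of 0.10 and 0.15, and CIS3 of 0.51. PIR5 stood at 1.02 and PIR3 at -0.93. Among the PIR genes these contrasts spanned a wider range than the means, which lay between 0.04 and 0.79. A contrast is the difference of the 2 orientation means and a mean is their average, so the ranges are on unlike scales. A part of dye in the response of PIR5 was not tested. With as many arrays in each orientation, a dye term cannot move a mean, so the 0.57 of PIR5 in that fit was fixed beforehand.

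**Figure D2:**
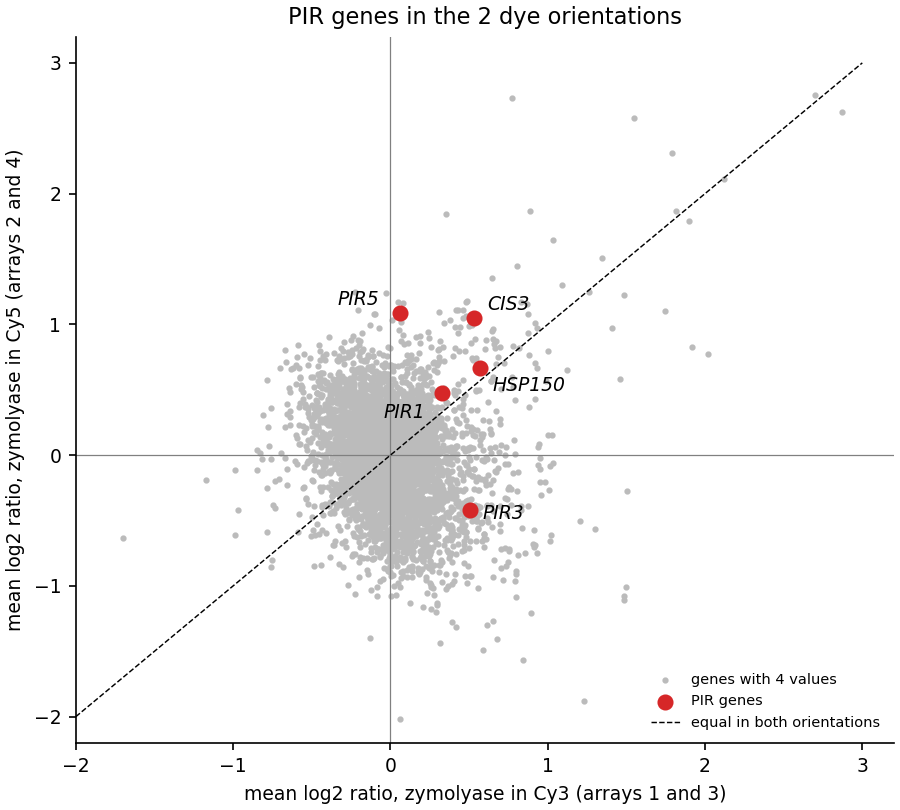
Mean log2 ratio of zymolyase over untreated with zymolyase RNA in Cy3 (horizontal axis, arrays 1 and 3) and in Cy5 (vertical axis, arrays 2 and 4) for 4730 genes (grey) and the PIR genes (red). HSP150, at 0.57 and 0.66, and PIR1, at 0.33 and 0.47, lie near the line of equal values, PIR5 lies above it at 0.06 and 1.09, and PIR3 below it at 0.50 and -0.42.

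The members were compared with each other by the difference of their log2 ratios within an array, over 10 pairs. PIR1 lay below HSP150 on all 4 arrays, by a mean difference of -0.22 ± 0.10 (SD, n = 4 arrays), and below CIS3 on all 4, by -0.39 ± 0.22. HSP150 lay above PIR3 on all 4 arrays, but the difference of 0.57 ± 0.94 came mostly from array 2, at 1.98, and both stood at 0.46 on array 3. CIS3 and HSP150, the members with the highest means, did not keep an order: HSP150 minus CIS3 was -0.18 ± 0.29 and positive on 2 of 4 arrays. CIS3 minus PIR5 was 0.22 ± 0.31, and HSP150 minus PIR5 0.04 ± 0.54. In the exact two-sided sign-flip permutation test no pair passed (adjusted p of 0.42 or more over the 10 pairs); 4 arrays cannot give less than 0.125, and 2 cultures not less than 0.5. So no member was shown to respond more than another.

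The genes lie in 2 clusters. PIR1 and PIR3 are next to each other on chromosome XI, and PIR5, HSP150 and CIS3 follow each other on chromosome X, per the R64 reference gene table, used here for names and order only. Of 6 neighbours tested, FMP33 rose, none fell and 5 did not pass, beside 2.35% of all genes called higher. FMP33, next to PIR5, had log2 ratios of 0.13, 1.40, 0.01 and 0.64 on arrays 1 to 4 and a mean of 0.54 ± 0.64 (limma adjusted p = 0.030, and 0.13 with a dye term). It thus had the same order of arrays as PIR5, with both Cy5 values above both Cy3 values. CIS3 had that order too, as had genes outside the cluster, such as DSE2 and NCW2. How many of all genes share it was not counted.

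YJL163C, further along the same side and chosen after its values were seen, had -0.02, 1.18, 0.16 and 0.57 (adjusted p = 0.093). JJJ2, which lies between it and FMP33, had no value on array 2. On the other side of the cluster FAR1, which encodes an inhibitor of the cyclin-dependent kinase in the mating response, had a mean of 0.29 ± 0.19 and SSY5, a protease of amino acid sensing, of 0.18 ± 0.45. Of the 8 of 10 nearest genes around that cluster with a value on array 2, 7 were above 0 there, with a median of 0.67, beside 0.07 for all genes tested on that array. Over 3695 pairs of adjacent genes in the table as a whole, the orientation contrast correlated at r = 0.13 and the treatment mean at 0.05, a description across genes that share arrays.

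Around PIR1 and PIR3 no tested neighbour passed. MCD4, of GPI anchor synthesis, had a mean of 0.10 ± 0.46, TPK3, a catalytic subunit of protein kinase A, of 0.10 ± 0.19, and the reading frame YKL162C of 0.19 ± 0.40. On array 2, where PIR3 was at -1.22, the 9 of 10 nearest genes with a value lay between -0.56 and 0.78, 5 of them above 0, with a median of 0.08. The low value of PIR3 was thus not shared by the genes beside it.

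**Figure D3:**
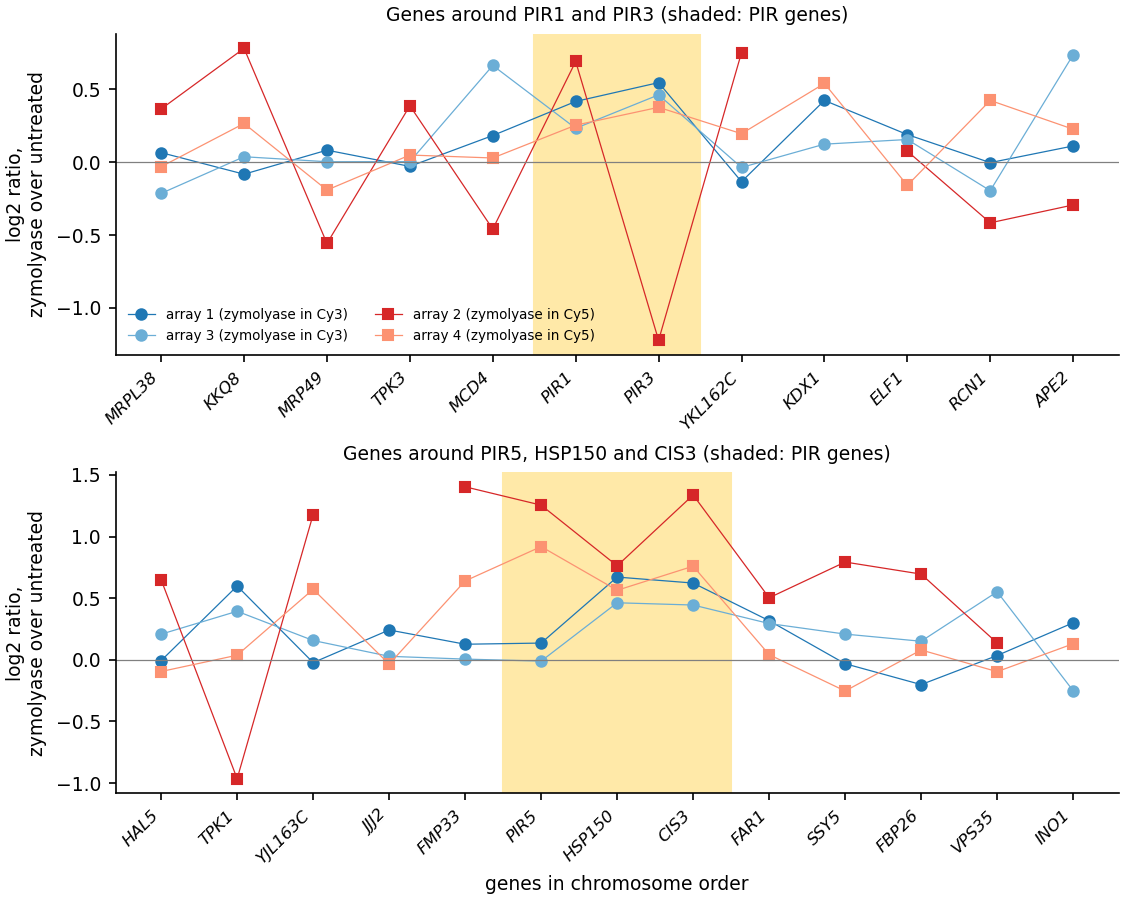
Log2 ratio of zymolyase over untreated on each array (vertical axis) for the PIR genes (shaded) and the 5 genes on each side in chromosome order; gaps are missing values. On array 2 (red squares) PIR3 stands at -1.22 among neighbours from -0.56 to 0.78, and FMP33 and PIR5 share high values in Cy5 and values near 0 in Cy3.

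By root mean square difference over the 4 arrays, the named genes most like HSP150 were CHA1 (0.11), a serine deaminase, GOR1 (0.11), a glyoxylate reductase, and FIR1 (0.13). Those most like CIS3 were OM14 (0.10) of the mitochondrial outer membrane, MET28 (0.11), a regulator of sulfur metabolism, and YPR1 (0.12), an aldo-keto reductase. For PIR5 they were OPI3 (0.06), of phosphatidylcholine synthesis, YOX1 (0.13), a cell cycle repressor, and PRP19 (0.14), a splicing factor. PIR1 lay nearest to LAA1 (0.07), YAF9 (0.07) and the cyclin-dependent kinase gene CDC28 (0.07), and PIR3 to NOP1 (0.16), AKL1 (0.17) and SDS22 (0.17).

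No PIR gene was among the 3 nearest of another. HSP150 and CIS3 came closest as a pair that both rose, at 0.30. HSP150 and PIR1 lay at 0.23, and CIS3 and PIR5 at 0.35. PIR3 was at 0.97 or more from every other member. With 4 arrays such distances describe these hybridisations and no more.

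Genes outside the family that are tied to Rlm1 in wild-type cells gave a comparison for the PIR values. Of 12 such wall and signalling genes on the array 10 were tested. SED1, CWP1 and CRH1 rose, none fell and 7 did not pass, where 2.35% of all genes were called higher and 0.803% lower. The median of the 10 was 0.30. SED1, a GPI-anchored structural wall protein, had log2 ratios of 1.03, 0.84, 0.81 and 0.57 (mean 0.81 ± 0.19, adjusted p = 7.3e-05). CWP1, a wall mannoprotein, had 0.90, 1.03, 0.44 and 0.72 (mean 0.77 ± 0.26, adjusted p = 0.00019). CRH1, which joins chitin to glucan, had 0.33, 1.30, 0.56 and 0.66 (mean 0.71 ± 0.41, adjusted p = 0.00084). Each of the 3 was above 0 on every array, like CIS3 and HSP150, and each lost its call when any 1 array was left out. Of the rest NCW2 had the highest mean, at 0.34 ± 0.69, and the chitin synthase gene CHS3 the lowest, at -0.22 ± 0.43.

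GPI-anchored proteins are the other large class of covalently bound wall proteins. SED1, CWP1 and CRH1, named above, are GPI-anchored too, and the list used here holds others only, so its count is not one for the whole class. Of its 8 tested, SPI1 rose and 7 did not pass (median 0.19), beside 2.35% of all genes called higher. SPI1, a stress-induced wall protein, had 1.30, 0.91, 1.23 and 1.59 on arrays 1 to 4 (mean 1.26 ± 0.28; adjusted p = 0.00070 with a dye term). CWP2 had the highest mean of the others, at 0.41 ± 0.29, and TIP1 the lowest, at -0.29 ± 0.27.

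Genes that make or lengthen the glucan to which PIR proteins are bound showed 1 of 7 higher and none lower (median 0.25). Of all genes 2.35% were called higher. The gene called was GAS2, a glucan elongase known from spore wall formation, with 0.49, 1.44, -0.01 and 0.45 (mean 0.59 ± 0.61, adjusted p = 0.013, and 0.15 with a dye term). Without array 2 its fitted mean was 0.29. GSC2, the stress-linked glucan synthase subunit, had a mean of 0.35 ± 1.12 and the elongase gene GAS5 of -0.22 ± 0.33. Of 8 genes for PIR maturation, which trim or glycosylate the proteins, none passed (median 0.03). MNN1, a mannosyltransferase, had the highest mean at 0.37 ± 0.75 and KEX2 the lowest at -0.19 ± 0.60.

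RNAs of regulators tied to PIR transcription or to wall, heat and osmotic stress were measured beside the family. None of 6 tested passed (median 0.02). The general stress factor gene MSN2 had the highest mean, at 0.49 ± 0.43 (adjusted p = 0.068). SLT2, whose kinase activates Rlm1, stood at 0.00 ± 0.46.

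Several PIR genes are transcribed most at the end of mitosis and in early G1, so genes of that phase were described beside them. Of 11 tested, DSE2 rose and 10 did not pass, with a median of 0.30, beside 2.35% of all genes called higher. DSE2, a wall-degrading protein of daughter cells, had 0.44, 1.13, 0.20 and 0.62 (mean 0.60 ± 0.40, adjusted p = 0.011, and 0.064 with a dye term). Without array 2 its fitted mean was 0.39. RME1, a repressor of meiosis, had the highest mean of the rest at 0.48 ± 0.43, and EGT2, of cell separation, the lowest at -0.14 ± 0.54. A part of the cell cycle in the PIR values was not tested.

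**Figure D4:**
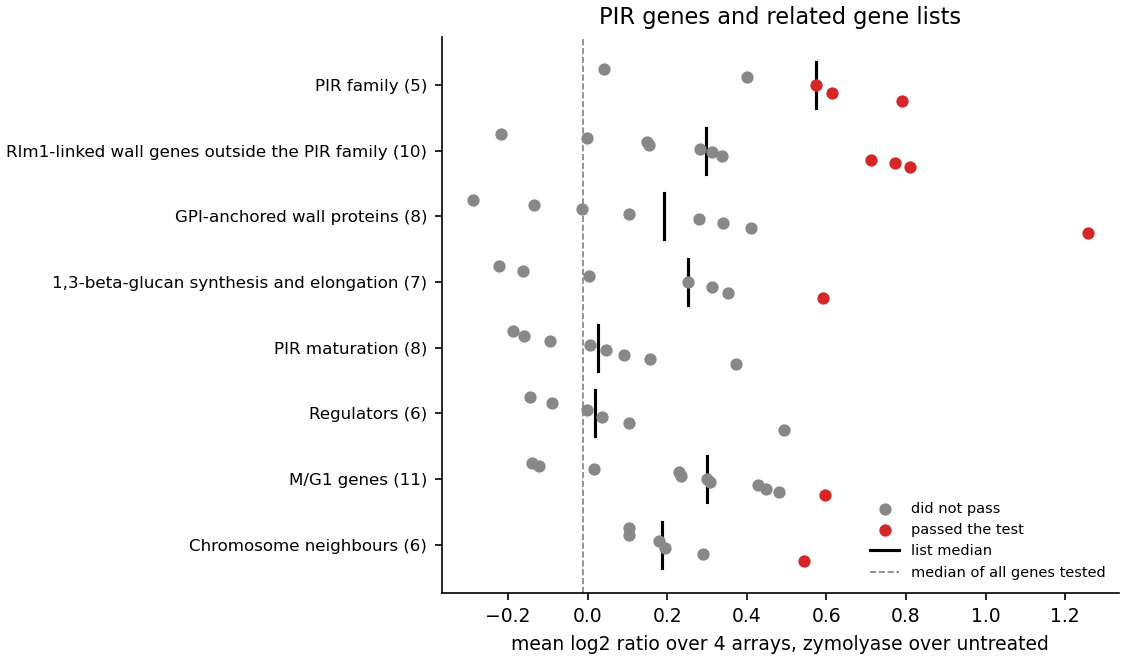
Mean log2 ratio over 4 arrays (horizontal axis) of each tested gene in the PIR family and the related lists, with the number tested in brackets; red marks genes that passed the test, black lines the list medians and the dashed line the median of all genes, -0.01. The PIR median is 0.57, from 5 genes, and that of the other Rlm1-linked genes 0.30.

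The calls of the family also depended on how the arrays were scaled and fitted. All 3 members called passed with quantile normalization (2.01% of all genes called higher). They also passed in each single pairing of the arrays (2.68% and 2.35%). The reported call requires this, as it keeps the larger adjusted p of both pairings. CIS3 and HSP150 passed with a dye term, with each array centred on its median (1.75%) and with genes of at least 3 values fitted with a dye term (1.35%). CIS3 was the member that passed when arrays were scaled to equal spread (1.04%) or weighted (1.37%, added after seeing the data). No member passed with the 4 arrays as independent and no dye term (0.359%). Had the deposited ratios already been turned, PIR5 would be lower, at -0.51, where 2.14% of genes were called lower, and the other members would not pass, PIR3 standing at 0.46 (adjusted p = 0.059).

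**Figure D5:**
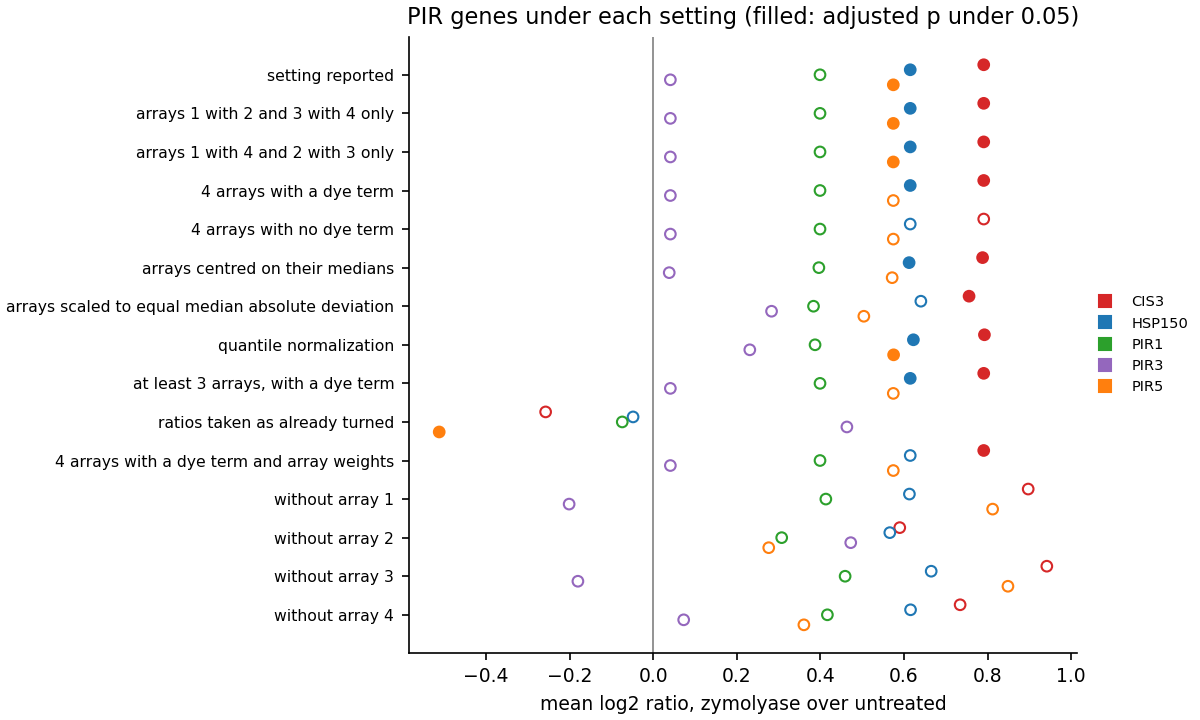
Mean log2 ratio (horizontal axis) of each PIR gene under each setting of the analysis, filled where the adjusted p was under 0.05. CIS3 and HSP150 have means between 0.57 and 0.94 under every setting drawn except the ratios read as already turned. There CIS3 is at -0.26 and HSP150 at -0.05. PIR3 ranges from -0.20 to 0.47. The single pairings and the fits with or without a dye term, weighted or not, cannot move the means of these genes, which have a value on every array.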

How the data were processed

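Per the labels' protocols, dyes were incorporated while cDNA was synthesized from total RNA. The authors' deposited values are 1 log ratio per feature and array, taken here as log2; for the scanner, background correction, normalization, numerator and log base, no statement was found in the sources used here. Column means lay near 0, and values were used as deposited after arrays 2 and 4 were multiplied by -1. The 2 control features were left out, and 5711 of the other features matched a gene of the R64 table. Features of 1 gene were averaged (34 genes).

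The 2 arrays of a culture, 1 of each orientation, were averaged, and the culture means were fitted in limma (version 3.58.1, R version 4.3.3). Which arrays come from 1 culture is not in the labels, so arrays 1 with 2 and 3 with 4, and 1 with 4 and 2 with 3, were both fitted and the larger adjusted p was kept. With 2 cultures limma gave all genes 1 standard error (0.16), so the test amounts to a minimum mean of 0.51 and takes no account of a gene's own spread. SDs are over 4 arrays, which hold 2 cultures. In the reported test the p-values rest on 1 spread between cultures shared by all genes, so they rank genes by mean alone. No intensities were used, so it is unknown how far signals stood above background; precision is limited by the number of arrays. PIR genes resemble each other in sequence, and whether their spots share labelled cDNA was not tested. No sequences were used here.

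The text names all members, in each list the genes called and the highest and lowest of the rest (1 such gene is not reported here), all listed neighbours with 4 values, and the 3 nearest named genes of each member. The members and lists were chosen with earlier results of these data known. Alternatives were single pairings, dye terms, centring, scaling, quantile normalization, genes with at least 3 values, ratios as already turned, and leaving out each array.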

Additional observations from a re-analysis of the deposited data

Results flagged for a closer look

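Among 75 genes named or listed with 4 values, 8 had 1 array far from the other 3 by Dixon's criterion, which chance alone meets in about 1 of 20 groups. Array 2 was the distant one in 7 of them. They were PIR3, at -1.22, CHS3, at -0.87, ECM33, at 0.71, GAS5, at -0.72, HOG1, at 0.59, SIC1, at -0.56, and CHA1, at 0.95. In GOR1 it was array 1, at 0.70. Array 2 had the widest ratios of the 4, and what set its value of PIR3 apart was not tested.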

How the results depend on the processing

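Of the PIR genes 3 passed in the setting reported. No member passed with no dye term (0), in a fit that, like those with a dye term, takes the 4 arrays as independent. With arrays scaled to equal median absolute deviation 1 passed, and 1 with a dye term and array weights (CIS3 in both). The weights were chosen after seeing the data. HSP150 did not pass with no dye term (0.62, adjusted p = 0.15), with scaling (0.64, adjusted p = 0.081) or with array weights (0.62, adjusted p = 0.0501), and CIS3 with no dye term (0.79, adjusted p = 0.16). PIR5 did not pass with a dye term (0.57, adjusted p = 0.059), with no dye term (0.57, 0.76), with centring (0.57, 0.053), with scaling (0.50, 0.15), with at least 3 values (0.57, 0.062) or with array weights (0.57, 0.071). PIR1 and PIR3 passed under none of the alternatives. Read as already turned, the ratios gave -0.074 for PIR1, -0.048 for HSP150, -0.26 for CIS3 and -0.51 for PIR5, of which only PIR5 passed (1 member, lower), and 1 Rlm1-linked gene, NCW2, lower.

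Without 1 array, fitted means lay between 0.59 and 0.94 for CIS3, 0.57 and 0.67 for HSP150, 0.28 and 0.85 for PIR5, 0.31 and 0.46 for PIR1, and -0.20 and 0.47 for PIR3, which was -0.20 without array 1 and -0.18 without array 3; 0 members and 0 of the Rlm1-linked genes passed; fewer arrays then enter and dyes are unbalanced. Those genes went from 3 to 0 also with no dye term. Over all genes 149 passed, against 77 with a dye term, 17 with no dye term, 97 with centring, 56 with scaling, 82 with at least 3 values, 74 with array weights, 316 as already turned, and 8 to 23 without 1 array. The cause of these changes was not tested. Pairs of members in 1 order on all arrays numbered 3, and 3 or 4 under the alternatives.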

Other observations

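Some genes of the lists had values on part of the arrays and were not tested. KDX1, a pseudokinase gene known as strongly dependent on Rlm1 and found near PIR3, had log2 ratios of 0.42, 0.12 and 0.54 on arrays 1, 3 and 4. All 3 were above 0, as were those of PIR3 there. CRG1, another Rlm1-linked gene, had 0.62, -0.24 and 0.27 on the same arrays. The stress factor gene MSN4 had 0.80, 0.76 and 0.25. SWI6, which encodes a subunit of the G1 transcription factors SBF and MBF, was measured with zymolyase in Cy3 only, at 0.68 on array 1 and 0.86 on array 3.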
